A study of Mus musculus with 7 samples.

Results

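The genes described here are 39 that encode sarcomere and Z-disc proteins other than myosin: thin filament subunits, titin and the proteins bound to it or to the thick filament, M-band proteins, Z-disc proteins, and proteins that tie the myofibril to the cell membrane, the intercalated disc and desmin. They were chosen by name, with earlier results of these data known. Measured signal enters the rule through detection and brightness. A gene entered the comparison where 3 or more of the 7 arrays read its probe well above background, and its brightest such probe stood for it. Of the 39 genes, 38 passed, out of 23678 genes tested in all, and each of the 38 was well above background on all 7 arrays. The exception was Mybphl, a relative of myosin binding protein C, whose probe was not well above background on any array.

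RNA came from the heart apex of 7 male C57Bl/6 mice, each a separate animal on a single-colour Agilent array of its own. All 7 mice carried a heterozygous MHC-mercremer transgene, a recombinase that the alpha myosin heavy chain promoter drives in cardiomyocytes and that acts only in the presence of tamoxifen. The 4 control mice carried that transgene alone, and the 3 double knockout (DKO) mice also carried homozygous floxed Akt1 (exons 6 and 7) and Akt2 (exons 5 and 6). Hydroxytamoxifen was given to control and DKO mice alike, 500 µg daily over 5 days with no further treatment, and hearts were taken from these 3 month old mice 10 days later. The controls had no floxed allele, so the floxed alleles themselves and the recombination of Akt1 and Akt2 cannot be told apart in this design. The apex holds other cells beside cardiomyocytes, and in tissue RNA fewer cells of a type and less RNA per cell cannot be told apart.

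The sarcomere is the contractile unit of heart muscle. Thin filaments of actin, tropomyosin and troponin are anchored at the Z-disc by alpha-actinin and slide past myosin filaments that are held in register at the M-band, while titin spans the unit from Z-disc to M-band. Beyond contraction, the Z-disc, the titin spring and the costamere carry LIM-domain and ankyrin-repeat proteins known as sensors of stretch. Akt1 and Akt2 are kinases of the insulin and growth factor pathway, known for their part in heart growth. The comparison asks which heart transcripts differ once both kinases are targeted in cardiomyocytes.

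Genes of sarcomere proteins are known targets of SRF, which binds the CArG box, and of MEF2. RefSeq promoter windows (GRCm38.p6, 250 bases before to 50 after a start) were in hand for 33 of the 39 genes, with 45 windows in all, since some genes have several starts. A CArG box on either strand lay in 9 of the 45 windows (20.0%), against 1.63% of 32851 windows of all genes, and these belonged to Acta1, Actc1, Fhl1, Fhl2, Ldb3, Myom1 and Nebl. A MEF2 motif lay in 7 windows (15.6%), against 1.86% of all, in Mybpc3, Myom3, Myoz2, Synpo2l, Ttn and Xirp2. The M-CAT element CATTCC lay in 22.2% of the windows against 14.7% of all, the TATA box TATAAA in 13.3% against 13.6%, and the FoxO motif GTAAACA in 0 of 45 against 3.65%. FoxO factors are known targets of Akt, and that 0 says only that these letters are not in these windows. The motif counts are a description of the windows, in which neighbouring starts of a gene share bases.

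Below are the 180 bases just before the start of 6 genes that the results return to, read 5′ to 3′ on the gene's strand, with a CArG box or MEF2 motif in capitals. The pairs Acta1 with Actc1 and Fhl1 with Fhl2 each carry a CArG box, and their transcripts are set against each other within each array further on. Ttn carries a MEF2 motif, and Nrap, the gene with the smallest p of the 38, carries neither in this stretch. The Fhl1 and Fhl2 stretches are each from 1 of 2 windows of the gene.
Nrap, chr19:56390039-56390218, minus strand: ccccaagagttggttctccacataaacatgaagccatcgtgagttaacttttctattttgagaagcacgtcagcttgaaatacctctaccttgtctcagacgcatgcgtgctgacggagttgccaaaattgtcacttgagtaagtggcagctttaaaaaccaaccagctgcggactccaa
Ttn, chr2:76982548-76982727, minus strand: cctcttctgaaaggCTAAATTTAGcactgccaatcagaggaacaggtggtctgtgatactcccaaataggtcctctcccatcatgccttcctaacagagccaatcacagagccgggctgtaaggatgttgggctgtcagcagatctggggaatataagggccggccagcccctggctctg
Fhl1, chrX:56779503-56779682, plus strand: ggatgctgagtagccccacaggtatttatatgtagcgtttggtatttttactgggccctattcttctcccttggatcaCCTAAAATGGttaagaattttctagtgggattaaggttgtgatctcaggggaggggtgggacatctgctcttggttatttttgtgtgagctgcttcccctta
Fhl2, chr1:43163962-43164141, minus strand: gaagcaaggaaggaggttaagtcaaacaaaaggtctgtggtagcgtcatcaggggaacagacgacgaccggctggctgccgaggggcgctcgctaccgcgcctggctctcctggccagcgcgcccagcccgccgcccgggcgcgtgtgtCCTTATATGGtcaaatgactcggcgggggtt
Acta1, chr8:123894776-123894955, minus strand: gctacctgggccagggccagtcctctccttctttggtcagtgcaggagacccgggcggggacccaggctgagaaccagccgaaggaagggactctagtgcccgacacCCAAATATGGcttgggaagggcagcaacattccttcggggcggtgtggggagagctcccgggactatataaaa
Actc1, chr2:114052876-114053055, minus strand: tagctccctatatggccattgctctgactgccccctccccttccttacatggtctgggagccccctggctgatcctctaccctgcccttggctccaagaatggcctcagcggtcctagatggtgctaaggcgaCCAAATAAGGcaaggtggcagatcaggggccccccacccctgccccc

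With 4 control and 3 DKO arrays, 2 of the 38 tested sarcomere genes rose and 0 fell at an adjusted p below 0.05 (limma, Benjamini-Hochberg over all 23678 genes). That is 5.26% of the 38, against 4.7% of all genes tested in either direction. By direction it is 2 of 38 higher, against 2.41% of all genes, and 0 of 38 lower, against 2.29%. At an unadjusted p below 0.05 there were 15 of the 38 (39.5%), 9 higher and 6 lower in DKO, against 25.5% of all genes. The DKO and control arrays did not overlap for 12 of the 38 (31.6%), against 25.7% of all genes. DKO was above for 7 (13.2% of all genes) and below for 5 (12.5% of all genes). The median difference of the 38 was 0.03 on the log2 scale, DKO minus control, beside a median of -0.02 over all genes, and 20 were positive and 18 negative. Under quantile normalization the median of the 38 was -0.05, with 17 positive. The 95% interval of the difference stayed within 2-fold either way for 36 of the 38 (94.7%, against 84.3% of all genes) and within 1.5-fold for 27 (71.1%, against 61.4%). For 36 of these genes a change of 2-fold thus lay outside the interval.

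**Figure D1:**
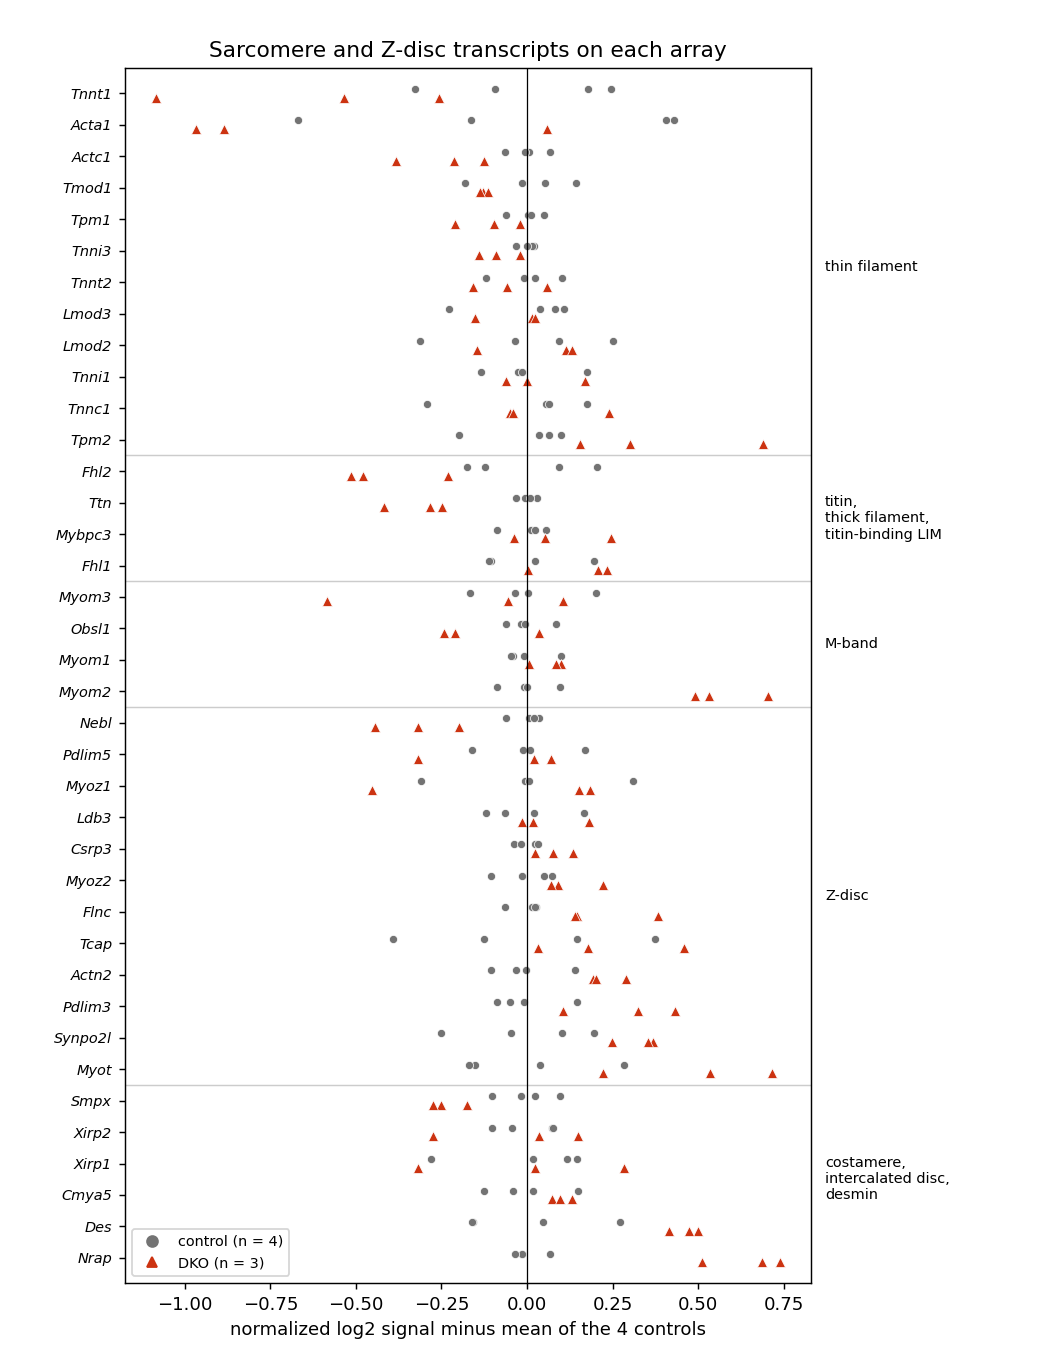
Normalized log2 signal of each of the 38 tested genes on each array, minus the mean of the 4 control arrays, with control arrays as grey circles (n = 4) and DKO arrays as red triangles (n = 3), grouped by structure. The triangles of Nrap, Myom2, Des, Tpm2, Actn2, Flnc and Synpo2l lie clear of the circles on the right, those of Ttn, Nebl, Fhl2, Smpx and Actc1 on the left, and the groups overlap for the other 26 genes.

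The largest rise was of Nrap, the nebulin-related anchoring protein, which helps attach the ends of myofibrils at the intercalated disc. Its normalized log2 signal was 15.52, 15.52, 15.60 and 15.50 on control arrays 1 to 4, and 16.27, 16.22 and 16.04 on DKO arrays 1 to 3. Every DKO array lay above every control array. The means were 15.53 ± 0.04 (SD, n = 4) and 16.18 ± 0.12 (SD, n = 3), a difference of 0.65 ± 0.08 (SE) or 1.56-fold, with an adjusted p of 0.0123 by limma. A second, dimmer Nrap probe differed in the same direction by 0.39, with DKO above control and an adjusted p of 0.198 over all probes, so it did not pass on its own.

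The other rise was of Myom2, or M-protein, which cross-links myosin filaments at the M-band and is known from fast and adult heart muscle. Its signal was 17.55, 17.63, 17.73 and 17.64 in the controls and 18.34, 18.17 and 18.13 in DKO. Again no DKO array reached down into the control range. The difference was 0.58 ± 0.08 (SE), or 1.49-fold, with an adjusted p of 0.0189 by limma, between means of 17.64 ± 0.08 (SD, n = 4) and 18.21 ± 0.11 (SD, n = 3). Nrap and Myom2 passed in 4 of 7 fits that each left out 1 array. Both were lost without control replicate 4, without DKO replicate 1 and without DKO replicate 2, with adjusted p of at most 0.0564 for Nrap and 0.0671 for Myom2 (both without DKO replicate 1). In those 3 fits the calls over all genes also dropped, to 191, 160 and 276, from 1114. With no filter on dim probes neither passed, nor with replicate number as a block (adjusted p 0.143 and 0.157 by limma). Over all genes 121 of 45553 were called with no filter and 1 with the replicate block, so these losses are not particular to Nrap and Myom2. Myom2 also missed the threshold with normexp background correction and with slide position as a block.

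Of 12 thin filament genes tested, 0 were called by limma (against 4.7% of all genes). An unadjusted p below 0.05 was seen for 3 (25%, against 25.5% of all genes): Actc1, Tnnt1 and Tpm2. Of the 12 differences 4 were positive and 8 negative, with a median of -0.07. Cardiac alpha-actin, Actc1, the main actin of the adult heart, measured 18.01, 18.14, 18.08 and 18.07 in the controls and 17.95, 17.86 and 17.69 in DKO. All 3 DKO arrays were below all 4 controls, yet the difference of -0.24 ± 0.08 (SE) had an adjusted p of 0.140 (limma). Skeletal alpha-actin, Acta1, which the heart expresses in fetal life and again under load, was far more variable. It measured 14.19, 14.17, 13.60 and 13.09 in the controls and 13.82, 12.88 and 12.80 in DKO. The control arrays ran over a wide range that took in the highest DKO array. The difference was -0.60 with a 95% interval from -1.43 to 0.23 and an adjusted p of 0.330 (limma), so neither a fall of over 2-fold nor a small rise was outside the interval.

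The troponin subunits of the adult heart had small differences with narrow intervals. Cardiac troponin T (Tnnt2), the subunit that binds tropomyosin, differed by -0.05 (95% interval -0.26 to 0.15). Cardiac troponin I (Tnni3), the inhibitory subunit, differed by -0.08 (-0.24 to 0.07). Cardiac troponin C (Tnnc1), the calcium sensor, differed by 0.05 (-0.27 to 0.37). For these 3 subunits of the adult complex the intervals left room for changes of less than 1.5-fold only. Tnnt1, the slow skeletal troponin T, measured 12.94, 12.37, 12.60 and 12.87 in the controls and 12.16, 11.61 and 12.44 in DKO. DKO replicate 3 lay inside the control range, and the difference of -0.63 ± 0.22 (SE) had an adjusted p of 0.143 (limma). A second Tnnt1 probe differed by -0.53. Tnnt1 lies on chromosome 7 with Akt2, 231 tested genes away, as do Tnni3 (230 genes away) and Csrp3 (281), which differed by -0.08 and 0.08. Tnni1, the slow skeletal troponin I of the fetal heart, differed by 0.04 on its brighter probe. Its dimmer probe, well above background on 5 of 7 arrays, differed by 0.85 ± 0.25 (SE) with DKO above control and an adjusted p of 0.0980 over all probes, so the probes of Tnni1 gave different sizes and neither passed.

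The tropomyosins differed in sign, and neither passed the test. Tpm1, the main cardiac tropomyosin, differed by -0.11 (95% interval -0.29 to 0.07) on its brightest probe, and its 3 probes gave both signs. Tpm2, the beta form, measured 10.60, 10.89, 10.83 and 10.86 in the controls and 11.48, 11.10 and 10.95 in DKO. Each DKO array was above each control, by little for DKO replicate 3, and the difference of 0.38 ± 0.14 (SE) had an adjusted p of 0.158 (limma). Lmod2 and Lmod3, leiomodins that lengthen actin filaments at the pointed end, differed by 0.03 and -0.04, and Tmod1, which caps that end, by -0.13. None of these had arrays of the groups apart.

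Among titin and its partners, 0 of 4 tested genes were called by limma (against 4.7% of all genes), with a median difference of -0.12. Of the 4, 2 had an unadjusted p below 0.05 (Ttn and Fhl2; 50%, against 25.5% of all genes). Ttn encodes titin, the molecular spring of the sarcomere. It measured 16.11, 16.16, 16.13 and 16.15 in the controls and 15.89, 15.72 and 15.85 in DKO. The controls were close to one another and all DKO arrays lay below them. The difference was -0.32 ± 0.07 (SE), or 1.25-fold lower, with an adjusted p of 0.0561 (limma), just short of passing. Its 3 probes differed by -0.32, -0.26 and -0.04. Ttn passed as lower under quantile normalization, in the authors' deposited values and with a filter on all 7 arrays (lowest adjusted p 0.0283), and in no fit that left out an array.

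Fhl2, a LIM protein that binds the titin spring and acts in signalling, showed the same order of groups. It measured 17.33, 17.22, 16.95 and 17.00 in the controls and 16.89, 16.64 and 16.61 in DKO. The gap between the lowest control and the highest DKO array was small, and the difference of -0.41 ± 0.12 (SE) had an adjusted p of 0.107 (limma). Its relative Fhl1, which also binds titin and is known to rise in hypertrophy, differed by 0.15 (95% interval -0.10 to 0.40). Mybpc3, cardiac myosin binding protein C of the thick filament, differed by 0.09 (-0.12 to 0.30).

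At the M-band Myom2 was the 1 gene called of 4 tested (25%, against 4.7% of all genes). It was also the 1 gene at an unadjusted p below 0.05 (25%, against 25.5%). Myom1, myomesin itself, differed by 0.06 with a 95% interval from -0.11 to 0.23. Myom3, the third myomesin, differed by -0.18 (-0.59 to 0.23), with DKO replicate 3 the lowest of all arrays at 8.43 against 8.85 to 9.21 in the controls. Obsl1, an obscurin relative that links myomesin and titin, differed by -0.14 (-0.35 to 0.08). The median of the 4 M-band differences was -0.04.

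None of the Z-disc genes passed the test, and 9 of 12 differences were positive (75%, against 46.9% of all genes). Of the 12 genes 0 were called by limma (against 4.7% of all genes), 6 had an unadjusted p below 0.05 (50%, against 25.5%; 5 higher and 1 lower in DKO), and the median difference was 0.18 on the log2 scale. On DKO arrays 1 to 3 the median of the Z-disc genes, each relative to its control mean, was 0.26, 0.14 and 0.09, and on control arrays 1 to 4 it was 0.02, 0.12, -0.05 and -0.04. DKO replicate 3 fell within the control range. The median of the Z-disc genes was 0.10 under quantile normalization and 0.07 with slide position as a block.

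The Z-disc gene closest to the threshold was lower, not higher. Nebl encodes nebulette, the short cardiac relative of nebulin at the Z-disc end of the thin filament. It measured 11.55, 11.52, 11.53 and 11.45 in the controls and 11.32, 11.07 and 11.20 in DKO. All DKO arrays lay below all controls. The difference was -0.32 ± 0.08 (SE), with an adjusted p of 0.0720 (limma), and a second probe differed by -0.35.

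Alpha-actinin, Actn2, the main cross-linker of the Z-disc, measured 17.40, 17.64, 17.47 and 17.50 in the controls and 17.79, 17.70 and 17.71 in DKO. The DKO arrays were all higher, by little over control replicate 2. The difference was 0.23 ± 0.08 (SE, adjusted p 0.147 by limma), and a second probe differed by 0.33 with an adjusted p of 0.0564 over all probes. Synpo2l, an actin-binding Z-disc protein also called CHAP, measured 12.83, 12.73, 12.58 and 12.38 in the controls and 13.00, 12.99 and 12.88 in DKO. Its difference of 0.32 ± 0.12 (SE) had an adjusted p of 0.148 (limma), while a second, dimmer probe differed by 0.67. With the mean of its probes in place of the brighter one, Synpo2l passed at an adjusted p of 0.0445.

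Myot, myotilin, which bundles actin at the Z-disc, measured 11.23, 11.67, 11.21 and 11.42 in the controls and 12.10, 11.92 and 11.61 in DKO. Its groups overlapped through DKO replicate 3, and the difference of 0.49 ± 0.16 (SE) had an adjusted p of 0.118 (limma). Flnc, filamin C, an actin cross-linker of Z-discs and costameres, measured 13.77, 13.75, 13.76 and 13.67 in the controls and 14.12, 13.88 and 13.88 in DKO. The groups were apart, with a difference of 0.22 ± 0.09 (SE) and an adjusted p of 0.164 (limma). Pdlim3, an alpha-actinin-binding PDZ-LIM protein, differed by 0.29 ± 0.10 (SE, adjusted p 0.147 by limma), and its groups overlapped.

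The other 6 Z-disc genes differed by less than 0.23 in size. Tcap, telethonin, which caps the titin end, differed by 0.22 with a wide 95% interval from -0.24 to 0.69. Csrp3, muscle LIM protein, a sensor of stretch, differed by 0.08 (-0.08 to 0.24). Ldb3, or Cypher, and Pdlim5, its relative, differed by 0.06 and -0.08, and each had probes of both signs. The calsarcins Myoz2 and Myoz1, inhibitors of calcineurin, differed by 0.13 and -0.04, and Myoz1, the skeletal form, had a low signal of 5.40 to 6.16.

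Among the genes of the costamere, the intercalated disc and desmin, Nrap was the 1 called of 6 tested (16.7%, against 4.7% of all genes). An unadjusted p below 0.05 was seen for 3 (50%, against 25.5%), 2 higher and 1 lower in DKO. Of the 6 differences 3 were positive and 3 negative, and the median was 0.05. Des encodes desmin, the intermediate filament that links Z-discs to one another and to the membrane. It measured 14.28, 14.05, 13.85 and 13.84 in the controls and 14.51, 14.42 and 14.48 in DKO. The DKO arrays agreed closely and lay above all controls. The difference was 0.46 ± 0.12 (SE), or 1.38-fold, with an adjusted p of 0.0763 (limma), and Des passed in the fit without control replicate 1 (adjusted p 0.0369). Smpx, a small chromosome X protein of the costamere, measured 13.32, 13.45, 13.41 and 13.52 in the controls and 13.25, 13.18 and 13.15 in DKO. Its difference of -0.23 ± 0.08 (SE) had an adjusted p of 0.122 (limma). Xirp1 and Xirp2, Xin actin-binding repeat proteins of the intercalated disc, differed by -0.0039 and -0.03, and Cmya5, myospryn, by 0.10.

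**Figure D2:**
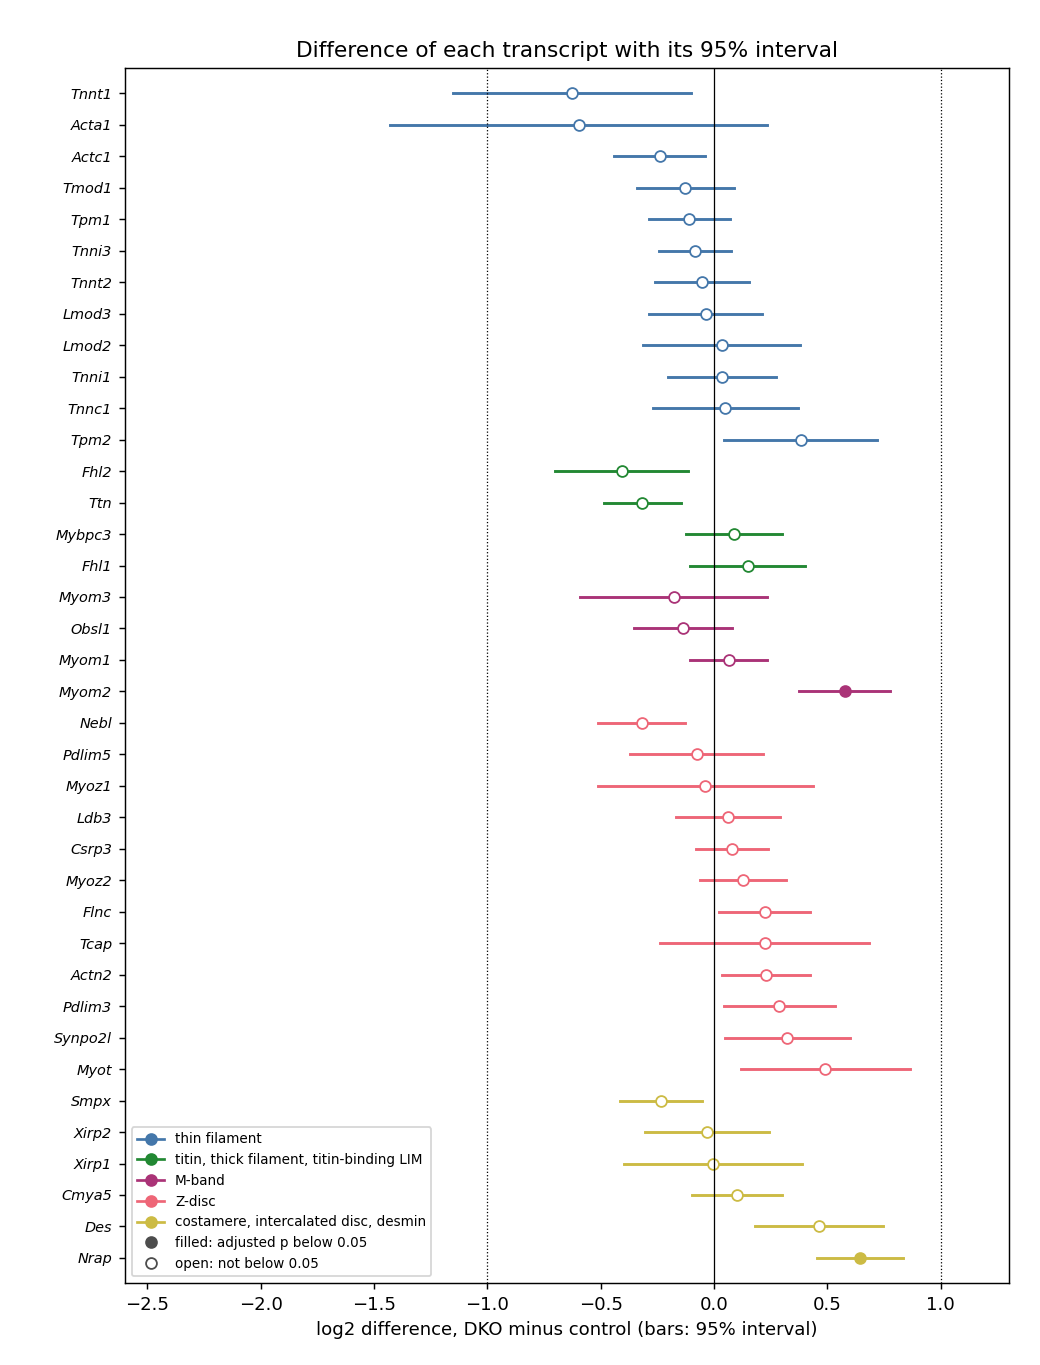
Difference of each of the 38 genes on the log2 scale, DKO minus control, with its 95% interval from limma as a bar, coloured by structure and with filled circles where the adjusted p was below 0.05. The 2 filled circles are Nrap at 0.65 and Myom2 at 0.58, and only the bars of Tnnt1 and Acta1 pass a dotted line at 2-fold.

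Of the 38 genes, 17 had more than 1 probe above background. For 14 of the 17 all probes differed in 1 direction, and for Ldb3, Pdlim5 and Tpm1 they did not. Of the 59 probes of these genes in all, 2 were called higher and 0 lower, against 4.4% of 30466 probes. Where probes shared a direction their sizes could still differ: Myoz2 differed by 0.13 and 0.29, Tpm2 by 0.38 and 0.15, and Smpx by -0.23, -0.16 and -0.13. Those of Flnc were close, at 0.22 and 0.24. The probe sequences were not analysed here, so which transcript forms a probe reads, and whether it reads a close relative as well, is not known.

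Transcripts of related proteins were compared as ratios within an array, where the scaling of the array cancels. A ratio between different probes is not a ratio of transcript numbers, so only its difference between groups is described. With 4 arrays against 3, the smallest p that the exact permutation test can give is 0.0571, two-sided, so no pair could pass 0.05, and p-values were adjusted over the 11 pairs. The ratio of Tpm2 to Tpm1 differed by 0.49, Myom2 to Myom1 by 0.51, Pdlim3 to Pdlim5 by 0.36 and Fhl1 to Fhl2 by 0.56 on the log2 scale. In each of these 4 pairs all DKO arrays lay above all controls, with the smallest exact permutation p of 0.0571 and an adjusted p of 0.157. For Pdlim3 to Pdlim5 the groups overlapped under normexp (0.30, exact permutation p 0.343) and with probes averaged per gene (0.24, p 0.114). The ratio of Fhl1 to Fhl2 was the tightest in the controls, at -4.16, -4.23, -4.08 and -4.15, against -3.72, -3.44 and -3.64 in DKO. These ratios use the same signals as the single-gene differences and are no separate evidence.

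For Acta1, Tnnt1 and Tnni1 against their adult cardiac relatives, no ratio had groups apart when each gene was read by its brightest probe. The ratio of Acta1 to Actc1 differed by -0.36 (exact permutation p 0.343), Tnnt1 to Tnnt2 by -0.57 (p 0.114) and Tnni1 to Tnni3 by 0.12 (p 0.171). With probes averaged per gene, which brings in the dimmer Tnni1 probe, the ratio of Tnni1 to Tnni3 differed by 0.52 with the groups apart (exact permutation p 0.0571). Leaving out 1 array, the ratio of Acta1 to Actc1 ran from -0.63 (without DKO replicate 1) to -0.19 (without control replicate 1), and that of Tnnt1 to Tnnt2 from -0.81 (without DKO replicate 3) to -0.35 (without DKO replicate 2). The other 4 pairs, Myom3 to Myom1, Myoz1 to Myoz2, Lmod3 to Lmod2 and Xirp1 to Xirp2, differed by -0.24, -0.17, -0.07 and 0.03, with exact permutation p from 0.343 to 0.857.

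**Figure D3:**
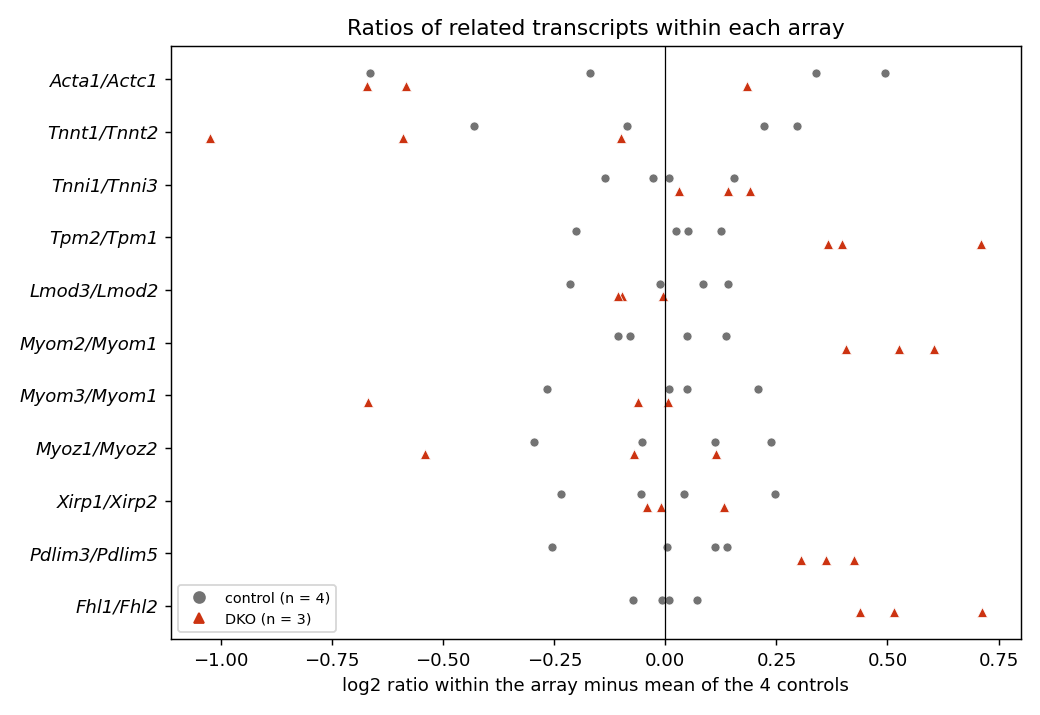
Log2 ratio of each of 11 pairs of related transcripts within an array, minus the mean of the 4 control arrays, for control (grey circles, n = 4) and DKO (red triangles, n = 3). For Tpm2/Tpm1, Myom2/Myom1, Pdlim3/Pdlim5 and Fhl1/Fhl2 the 3 triangles lie to the right of the 4 circles, and the other 7 pairs overlap.

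A further 73 genes of the sarcomere, its upkeep and its regulators were looked up in the same fit, and 70 were tested. Of these 3 rose and 2 fell (7.14%, against 4.7% of all genes), with 44 differences positive, 26 negative and a median of 0.08. The groups did not overlap for 23 of the 70 (32.9%, against 25.7% of all genes), and 18 had an unadjusted p below 0.05 (25.7%, against 25.5%). Ankrd1, the stretch-responsive ankyrin repeat protein that binds titin, rose by 0.87 ± 0.18 (SE, adjusted p 0.0435 by limma). It measured 15.21, 15.58, 15.92 and 15.63 in the controls and 16.68, 16.41 and 16.28 in DKO, with the groups apart. Csrp1, a LIM protein related to Csrp3 and abundant in smooth muscle, rose by 0.37 ± 0.08 (SE, adjusted p 0.0483), and Tln1, talin, which links integrins to actin, by 0.30 ± 0.07 (SE, adjusted p 0.0490). Each of these 3 lost its call in all 7 fits that left out 1 array, with adjusted p up to 0.130, 0.142 and 0.140, and also with slide position as a block. With the mean of its probes Tln1 differed by 0.24 and did not pass (adjusted p 0.139 by limma).

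The 2 genes that fell were Itgb1bp2 and Palld. Itgb1bp2, melusin, a muscle protein that binds integrin and is known upstream of Akt in the loaded heart, measured 13.14, 13.15, 12.91 and 13.08 in the controls and 12.59, 12.39 and 12.44 in DKO. All DKO arrays were lower, and it fell by 0.60 on the log2 scale, or 1.51-fold (SE 0.09, adjusted p 0.0212 by limma). Palld, palladin, an actin-associated scaffold of Z-discs and stress fibres, measured 14.86, 14.72, 14.62 and 14.60 in the controls and 14.24, 14.05 and 14.14 in DKO. It fell by 0.56 on the log2 scale (SE 0.09, adjusted p 0.0263 by limma). With the mean of its probes in place of the brightest one, Palld differed by -0.37 and did not pass (adjusted p 0.0524 by limma). Itgb1bp2 passed in 3 and Palld in 2 of the 7 fits that left out 1 array, with adjusted p up to 0.0764 and 0.0877, both without DKO replicate 2, and neither passed with slide position as a block.

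**Figure D4:**
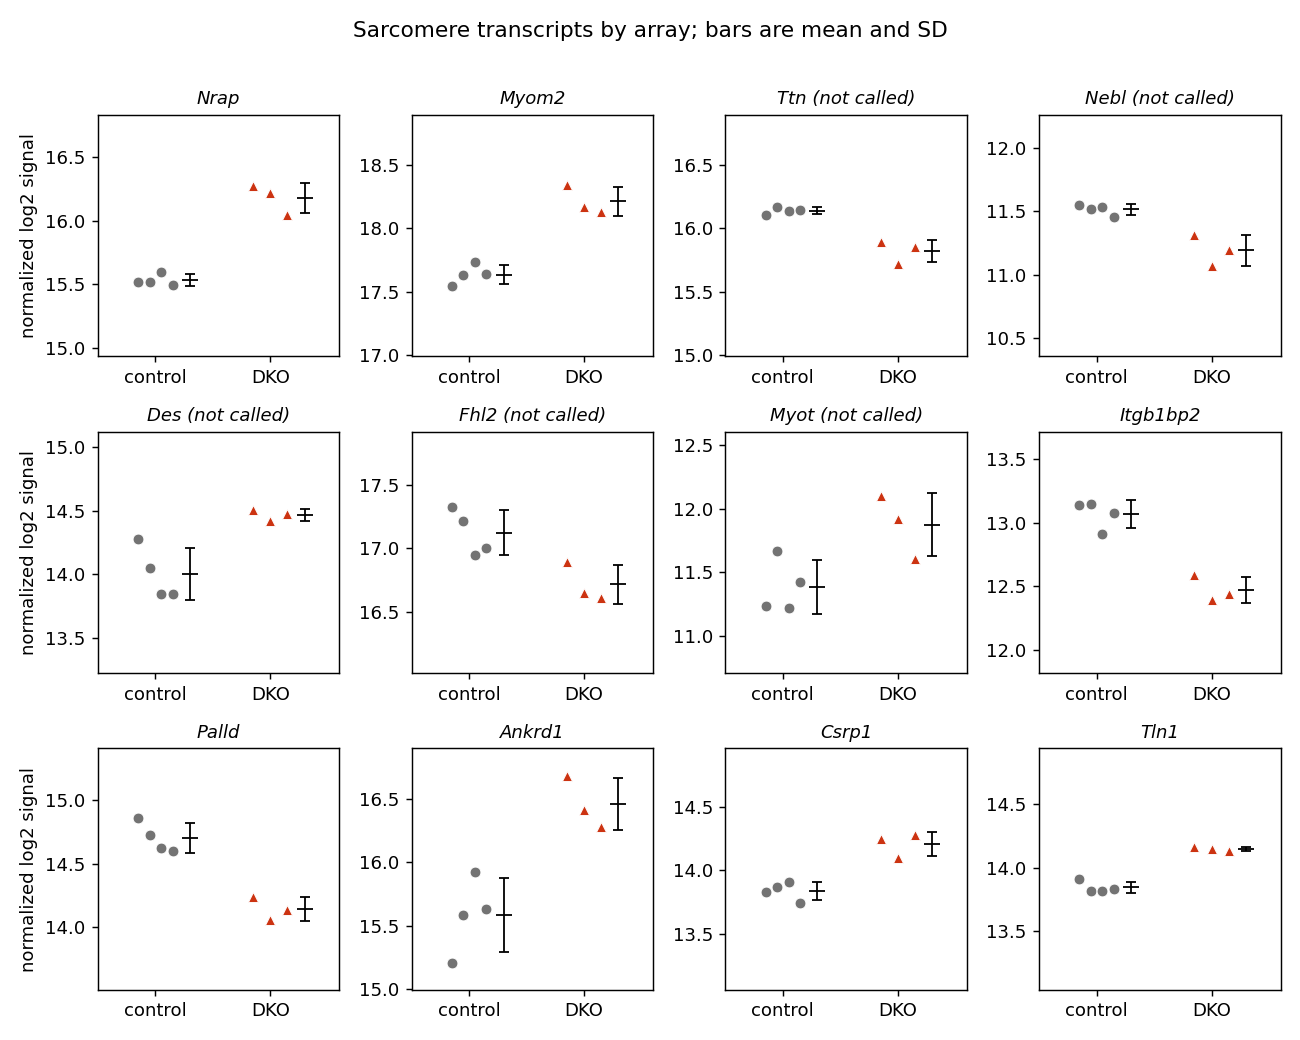
Normalized log2 signal on each array of 7 of the 39 genes (Nrap, Myom2, Ttn, Nebl, Des, Fhl2 and Myot) and of the 5 called genes of the wider list, with control as grey circles (n = 4), DKO as red triangles (n = 3), and bars for mean and SD. The groups are apart in every panel but that of Myot, whose lowest DKO array, 11.61, lies below control replicate 2 at 11.67, and panels marked as not called had an adjusted p of 0.05 or more.

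Some measures of the samples differed between the groups and others did not. Akt2 was lower in DKO on its 3 probes, by -2.05, -2.29 and -0.68 (adjusted p over all probes 0.000203, 0.000295 and 0.0335 by limma), while the 2 Akt1 probes differed by 0.17 and 0.47 and did not pass. Whether any of these probes lies in a floxed exon was not analysed here, so Akt1 neither checks nor contradicts the labels. Spots well above background were 54.7% to 57.6% on the control arrays and 53.0% to 55.8% on the DKO arrays, and 0 were saturated. The ventricular cardiomyocyte markers had 0 of 8 called by limma and a median difference of 0.10. An unadjusted p below 0.05 was seen for 2 of them, in opposite directions: Ryr2 at -0.38 and Atp2a2 at 0.20. The log2 of the summed signal of the 8 was 20.1757 to 20.2798 in the controls and 20.2831 to 20.4012 in DKO. Every DKO array was thus above every control, by little at the nearest. Fast skeletal muscle markers had 0 of 6 called and 2 at an unadjusted p below 0.05, with a median difference of 0.05 and Myh1, Myh2, Myh4 and Actn3 not tested because their probes were above background on at most 1 array.

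Of the atrial and conduction markers Hcn4 and Kcnj3 fell, by 0.54 and 0.89 on the log2 scale (2 of 5 tested, against 2.29% of all genes called lower). Nppa differed by 0.82, Myl4 by -0.43 and Myl7, a dim gene well above background on 4 arrays, by -1.09, without passing. Sln and Bmp10 of this list were not tested because their probes were above background on at most 1 array. The median difference of the 5 was -0.54, with 1 positive (Nppa), and 4 had an unadjusted p below 0.05 (against 25.5% of all genes). The log2 of the summed signal of the 5 was 15.98 to 16.73 in the controls and 16.93 to 17.51 in DKO. Nearly all of that sum was Nppa, at 15.94 to 16.71 in the controls and 16.92 to 17.50 in DKO. Smooth muscle and mural markers bear on genes that those cells can also express. Among them are Des, Tpm2, Flnc, Pdlim3 and Csrp1, with positive differences, and Palld, which fell. Of the 9 markers tested, 6 had an unadjusted p below 0.05 (against 25.5% of all genes) and 1 was called by limma (Myh11, which rose by 0.63). The median difference was 0.32, and the log2 of the summed signal was 16.30 to 16.62 in the controls and 16.17 to 16.36 in DKO. Tagln and Cnn1 differed by 0.36 and 0.48, and Acta2 and Smtn by -0.41 and -0.71. Markers of fibroblasts (8), endothelial cells (7), leukocytes (6), erythroid cells (3) and adipocytes (1) had 0 called by limma and 1, 2, 1, 0 and 0 at an unadjusted p below 0.05, with median differences of 0.12, 0.20, 0.04, 0.17 and -0.07. Of the 7 endothelial markers 7 were positive, and the log2 of their summed signal was 14.77 to 15.03 in the controls and 15.09 to 15.22 in DKO. Of the 8 fibroblast markers 7 were positive. The summed signals of fibroblast, leukocyte, erythroid and adipocyte markers overlapped between the groups. The part of these markers in the results above was not tested.

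The arrays lay on 1 slide in 2 rows of positions, with 3 control and 1 DKO arrays in the first and 1 control and 2 DKO arrays in the second. Within the 2 rows Nrap differed by 0.51 and 0.73, Myom2 by 0.49 and 0.62, Ttn by -0.27 and -0.36, Nebl by -0.32 and -0.33, Des by 0.49 and 0.41, and Fhl2 by -0.48 and -0.45. Among the wider list, Itgb1bp2 differed by -0.60 and -0.66, Palld by -0.56 and -0.58, Ankrd1 by 0.69 and 0.97, Csrp1 by 0.45 and 0.31, and Tln1 by 0.28 and 0.34. For each of these 11 genes the groups did not overlap, so the same direction in both rows was fixed in advance. Some genes whose groups overlap changed sign between the rows, such as Tnnc1 (-0.14 and 0.39) and Myom3 (-0.64 and 0.19). With slide position as a block Nrap passed (adjusted p 0.0469 by limma), and the calls of Myom2 (0.0621), Itgb1bp2 (0.0545), Palld (0.0732), Ankrd1 (0.111), Csrp1 (0.107) and Tln1 (0.109) were lost. With so few arrays in a row there is no test within it.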

How the data were processed

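Heart apex RNA was read on Cy3 arrays (Agilent design 074809) that share a slide and a scan. Spot values are deposited as background-subtracted intensities on a linear scale, which the authors obtained with Feature Extraction 12.0.3.1, with probe positions on mm9, per the file headers. A further table deposited by the authors has log2 values, which matched quantile-normalized, median-centred scanner values (r from 0.998 to 0.9989, across probes), with each array's median at 0. Its software is not given in the sources.

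Control spots were dropped. From log2 signals each array's 75th percentile over all other spots was subtracted, the mean percentile (9.14) added back, and spots with an outlier flag then left out, so values compare arrays for 1 probe and never 1 probe with another. Accessions gave symbols through RefSeq (GRCm38.p6) to 32994 of 56605 probes, and the brightest of a gene's kept probes stood for it. The test was limma 3.58.1 (lmFit, eBayes; R 4.3.3) with group alone in the model, two-sided, on 5 residual plus 2.11 prior degrees of freedom. Genes with a Benjamini-Hochberg adjusted p below 0.05 over the 23678 tested were called. Probes were fitted likewise over all 30466 kept. Intervals are limma's at 95%, and precision is limited by how few arrays there are.

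The 39 genes and all lists were chosen with earlier results of these data known, so no list has a test. All 39 are accounted for, and every called gene of the wider list is named, with markers that move with a result. Simulated data for this comparison held 67, 67 and 66 genes changed by log2 0.5, 1 and 2 among 23678: the fit found 29.9%, 67.2% and 93.9% of them, and it made 9 false calls. The simulated noise was normal and independent between genes, and fewer genes were changed than the 1114 called in the real fit. These rates may therefore not hold for the real arrays. Alternatives were quantile normalization, normexp (offset 50, on median spot signals, since no mean signal was in the files used), probe filters set to none or to all 7 arrays, the value table of the authors, probe means per gene, a block for replicate number or for slide position, and each array left out. Taking the percentile over spots without an outlier flag was added after seeing the data. No arrays held identical values, and arrays of 1 group correlated at 0.984 to 0.994 over genes.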

Additional observations from a re-analysis of the deposited data

Results flagged for a closer look

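The 4 control arrays, but not the DKO arrays, were examined for an array far from its group. Among 54 values 1 passed Dixon's 95% limit for 4 samples. It was Flnc, where control replicate 4, at 13.67, stood apart from the other controls, at 13.75 to 13.77. The gap was 0.8647 of the range. Chance gives about 1 such value in 20 groups examined, and Flnc, filamin C, was not called.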

How the results depend on the processing

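The 38 genes kept 33 to 38 of their signs under the 9 alternatives. Over these alternatives Nrap was called higher under 7 (adjusted p by limma 0.00719 to 0.143) and Myom2 under 5 (0.012 to 0.157), Itgb1bp2 and Ankrd1 under 6, Palld and Csrp1 under 4 and Tln1 under 1. Under quantile normalization 1 of the 38 fell (Ttn) and 1 of the wider list rose. The medians were -0.0465 for the 38 genes, -0.14 for the thin filament, -0.20 for titin and partners, -0.11 for the M-band, 0.0989 for the Z-disc and -0.0344 for the costamere group. Tnnc1 turned to -0.0497, Myom1 to -0.0514, Myoz1 to 0.10, Ldb3 (gene and probe) to -0.0585, Cmya5 to -0.0255 and the Myoz1/Myoz2 ratio to 0.0678. In the authors' deposited values 1 of the 38 fell (Ttn) and 1 of the wider list rose, the medians were -0.11 for the thin filament and -0.0836 for the M-band, and Tnnc1 turned to -0.0137, Myoz1 to 0.10, Ldb3 to -0.0016 and the Myoz1/Myoz2 ratio to 0.0374. Normexp gave 549 calls over all genes, 1 rise among the 38 and 1 fall in the wider list, with Lmod2 at -0.0155, Myoz1 at 0.0493, Xirp2 at 0.0678 and the Xirp1/Xirp2 ratio at -0.086. With no filter 121 of 45553 genes were called, with 0 rises among the 38 and 0 rises and 0 falls in the wider list. The filter on all 7 arrays added 1 fall (Ttn). With probe means per gene Ldb3 turned to -0.0319 and Pdlim5 to 0.0479.

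With the replicate block 1 gene was called over all, 0 of the 38 rose, and 0 of the wider list rose or fell. The Z-disc median was 0.092 with the replicate block, Tnni1 turned to -0.0089 and Xirp1 to 0.0443. Deviations of arrays with 1 number correlated at 0.129, 0.00691 and 0.0325. These correlations cannot show whether arrays of 1 number shared their handling, which the labels do not give. With slide position as a block 288 genes were called, 1 of the 38 rose (Nrap), and 0 of the wider list rose or fell. The medians were then -0.0113 for the 38 genes, -0.0955 for the thin filament, 0.0732 for the Z-disc and -0.0347 for the costamere group, with Lmod2 at -0.0126 and Ldb3 at -0.010.

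With each array left out in turn, 160 to 1127 genes were called, 0 to 3 of the 38 rose, 0 of the wider list rose in every such fit and 0 to 2 fell. Medians ran from -0.038 to 0.0881 for the 38 genes, -0.11 to -0.0532 for the thin filament, -0.048 to 0.0386 for the M-band, 0.092 to 0.21 for the Z-disc and -0.0181 to 0.13 for the costamere group. Signs turned within the ranges of Tnni1 (-0.0305 to 0.0949), Tnnc1 (-0.0478 to 0.11), Lmod2 (-0.0713 to 0.12), Lmod3 (-0.11 to 0.02), Myom3 (-0.32 to 0.0248), Myoz1 (-0.15 to 0.17), Pdlim5 (-0.15 to 0.0448), Xirp1 (-0.15 to 0.15) and Xirp2 (-0.12 to 0.0912), and of the ratios Myoz1/Myoz2 (-0.31 to 0.0213) and Xirp1/Xirp2 (-0.051 to 0.11). Fewer arrays are in each of these fits. The cause of the other shifts was not tested.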
